A study of Mus musculus with 20 samples.

Results

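The glutathione, thioredoxin and peroxiredoxin systems and other targets of the transcription factor NRF2 were followed in cortex of aged APOE4 mice fed a ketogenic diet (KD) or a control diet (CD). The set holds 36 of the 23413 gene names in the count tables. They were chosen by name for these functions and not by their measured values, though with earlier results of these data known. All 36 were among the 15660 genes that passed the expression filter and were tested. Every mouse was an APOE4 knock-in (APOE4KI in the labels), in which the mouse Apoe gene is replaced by the human APOE4 allele, the strongest common genetic risk factor for late-onset Alzheimer's disease. The diets were given in isocaloric amounts for 12 months, from the age of 10 months to that of 22 months, so no younger mice and no mice with another APOE allele serve as a comparison here. Females were 5 on the CD and 4 on the KD, and males 5 on the CD and 6 on the KD, with 1 RNA-seq library of frozen cortex per mouse. The labels write SD for the control diet. The KD held nearly all its energy as fat and the CD most of it as carbohydrate. The KD also held more tert-butylhydroquinone, a preservative of oils that is known as an activator of NRF2, more protein and methionine per weight and another mineral mix, and effects of these cannot be told apart from those of ketosis.

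NRF2, encoded by Nfe2l2, is held in the cytoplasm and marked for degradation by KEAP1. When oxidants or electrophiles modify KEAP1, NRF2 enters the nucleus and binds antioxidant response elements at genes for glutathione synthesis, thioredoxin recycling and quinone reduction. Glutathione and thioredoxin pass electrons from NADPH to peroxidases, and in brain much of this capacity lies in astrocytes, which supply neurons with precursors of glutathione. Metallothioneins bind zinc and copper, and their genes respond to metals through metal response elements.

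The core of the antioxidant response element, searched as TGACNNNGC on both strands from 250 bases before to 50 bases after the transcription starts listed by RefSeq (GRCm38.p6), was present in 8 of the 30 members with such a window, 26.7%, against 14% of all 27025 genes. Hmox1, Gclc, Gsr, Gsta4, Prdx6 and Sod3 had no entry. The stretches with a core are shown because Nfe2l2, Txnrd1 and Sod1, to which the comparisons of diets and sexes turn, are among them. They run 5′ to 3′ on the strand of the gene, the core is in capitals, and a match is a description and not a site of binding.
Nfe2l2, chr2:75704870-75704913 (- strand): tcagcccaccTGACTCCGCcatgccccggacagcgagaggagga
Gclm, chr3:122245398-122245456 (+ strand): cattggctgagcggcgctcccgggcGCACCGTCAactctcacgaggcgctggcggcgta
Gstm5, chr3:107895787-107895845 (+ strand): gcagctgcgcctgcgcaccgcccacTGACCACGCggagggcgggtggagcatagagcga
Txnrd1, chr10:82859089-82859147 (+ strand): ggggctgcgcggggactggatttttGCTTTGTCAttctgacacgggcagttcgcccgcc
Srxn1, chr2:152105542-152105570 (+ strand): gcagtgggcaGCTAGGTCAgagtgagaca
Prdx1, chr4:116685441-116685499 (+ strand): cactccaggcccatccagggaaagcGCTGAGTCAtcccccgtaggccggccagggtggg
Sod1, chr16:90220681-90220739 (+ strand): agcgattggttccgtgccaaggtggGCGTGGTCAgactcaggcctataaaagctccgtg
Mt2, chr8:94172514-94172572 (+ strand): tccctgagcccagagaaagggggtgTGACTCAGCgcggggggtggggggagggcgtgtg
The core of Srxn1 starts at base 29 after the start site, and those of the others lie before it, from 240 bases (Nfe2l2) to 42 bases (Gstm5) upstream.

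The metal response element was searched as TGCACNC and TGCGCNC on both strands, and these cores were in 14.2% and 17% of all genes. Among the members, 4 held the first form (Gstm1, Mt1, Mt2 and Mt3) and 8 the second (Gclm, Gstm5, Txnrd2, Txnip, Srxn1, Prdx4, Mt1 and Mt2). The 250 bases upstream of Mt1 and Mt2 are shown because these neighbouring genes moved together from mouse to mouse. Capitals mark the metal response element cores before the start site, 1 in Mt1 and 3 in Mt2. Cores after the start site, which begin at bases 3 and 21 in Mt1 and at base 5 in Mt2, are not shown.
Mt1, chr8:94178839-94179088 (+ strand): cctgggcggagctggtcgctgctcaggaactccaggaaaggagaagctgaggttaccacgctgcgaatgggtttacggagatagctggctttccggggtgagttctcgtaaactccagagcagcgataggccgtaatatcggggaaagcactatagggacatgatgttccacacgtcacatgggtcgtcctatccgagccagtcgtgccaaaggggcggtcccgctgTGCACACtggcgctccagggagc
Mt2, chr8:94172368-94172617 (+ strand): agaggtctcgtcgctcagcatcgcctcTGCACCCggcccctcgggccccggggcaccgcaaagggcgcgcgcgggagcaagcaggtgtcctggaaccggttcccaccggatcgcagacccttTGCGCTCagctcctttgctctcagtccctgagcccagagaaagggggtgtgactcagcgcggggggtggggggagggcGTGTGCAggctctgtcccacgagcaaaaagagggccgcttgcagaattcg
In Mt2 the core of the antioxidant response element lies between the second and the third of these cores.

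The libraries held between 12207161 and 29109990 counts, and the members together took between 0.259% and 0.332% of them. The E numbers in the labels fall into 2 runs (as E61 and E207) of 10 libraries each, with all 4 groups in both. These runs are called library series 1 and 2 here, but the labels name no batch and do not say what the numbers count. Series 2 was shallower (12207161 to 17697342 counts, against 21015275 to 29109990 in series 1). Per library, Xist ran from 319 to 1364 CPM (a gene's count relative to its library total) in females and at most 7.59 CPM in males. The Y-linked gene Ddx3y was at 163.5 CPM or more in males and at most 1.64 CPM in females, apart from CD female E228 with 14.0 CPM. Mouse Apoe was at 1.33 to 3.34 CPM. All 10 markers of cortical excitatory neurons were detected in every library, but so were all 10 markers of striatum, the region beneath the cortex. The cortical markers summed to 417.5 to 485.8 CPM in KD females E61, E68 and E207 and CD female E249, and to 858.2 to 1333 CPM in the other 16 libraries. The summed level of the striatal markers was 1137 to 3715 CPM in 5 libraries, those of KD females E61, E68 and E207, CD female E249 and KD male E59, and 238.9 to 630.0 CPM in the other 15. Choroid plexus markers summed to 2416 CPM in KD male E59. Since these are bulk samples, fewer cells of a type and less RNA per cell cannot be told apart.

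Ferritin heavy chain, which stores iron in a form that does not generate radicals, was the member of highest level. Fth1 was at 157 ± 23.1 CPM per kilobase of exon (SD, n = 20), followed by the glutathione S-transferase Gstm5 at 87.4 ± 8.12 and the mitochondrial peroxiredoxin Prdx3 at 60.6 ± 6.17. The cytosolic peroxiredoxin Prdx2 (50.9 ± 7.58 CPM per kilobase), thioredoxin Txn1 (49.0 ± 3.92), the peroxiredoxin Prdx6 (45.0 ± 6.03), sulfiredoxin Srxn1 (43.7 ± 5.56) and Prdx1 (43.1 ± 6.25) came next. The regulators themselves were lower, with Keap1 at 8.02 ± 2.05 CPM per kilobase and Nfe2l2 at 4.94 ± 0.983. Nqo1 and Hmox1 stood near the bottom of the order. Nqo1, a quinone reductase that is a classical NRF2 target, was at 4.98 ± 1.17 CPM per kilobase and Hmox1, the inducible heme oxygenase, at 1.499 ± 0.421, while the constitutive Hmox2 was at 23.0 ± 2.30. Sod3, the extracellular superoxide dismutase, was lowest at 0.376 ± 0.158 CPM per kilobase, and the copper-zinc enzyme Sod1 was at 35.9 ± 4.23 and the mitochondrial Sod2 at 29.1 ± 1.89. Among the peroxidases and the genes of glutathione synthesis, the values ran from Gpx4, the peroxidase of lipid hydroperoxides (34.7 ± 8.26 CPM per kilobase), and the catalytic subunit of glutamate-cysteine ligase Gclc (22.6 ± 2.22) through the modifier subunit Gclm (5.74 ± 0.613) to glutathione synthetase Gss (1.89 ± 0.279). Mt3, the metallothionein of brain, was at 39.0 ± 17.5 CPM per kilobase, Mt1 at 31.4 ± 6.38 and Mt2 at 19.2 ± 5.55. The length of a gene here joins all its annotated exons (3970 bases for Sod1 and 10008 for Sod2), so the order also depends on the annotation.

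**Figure D1:**
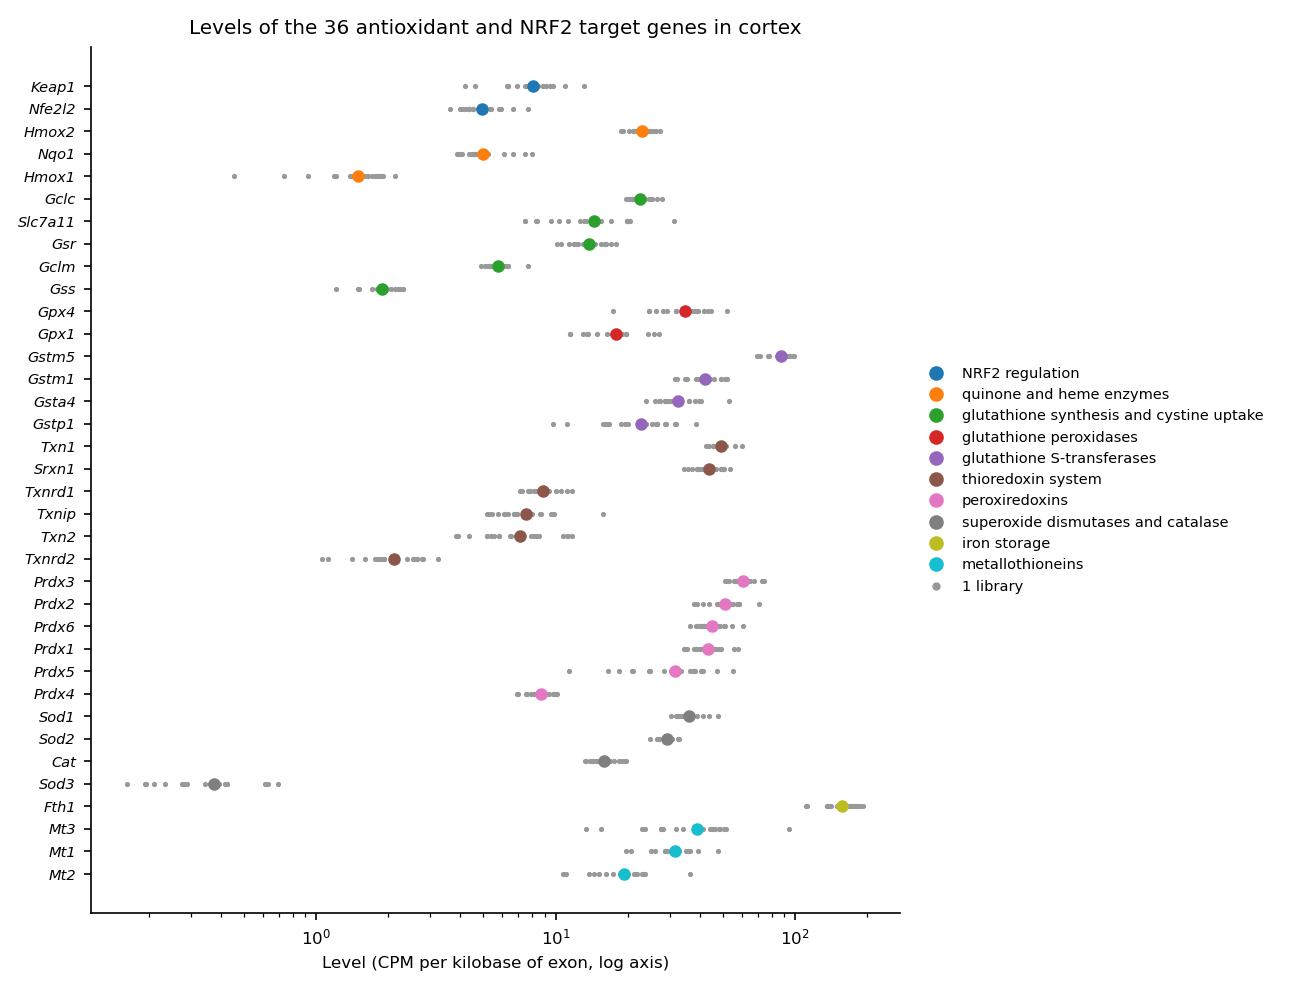
Level of each member on a log axis, in CPM per kilobase of exon, by role (colours). Large points are means over 20 libraries and small points single libraries, and Fth1 (157) and Sod3 (0.376) are the ends of the order.

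The first comparison asks whether the KD changed these genes in females. At FDR 0.1 and a 1.5-fold change, the thresholds of the study, 0 of the 36 members passed edgeR's quasi-likelihood test, against 7 of the 15660 genes tested (0.0447%). Without the minimum fold the members were again 0, against 0.0511% of all genes. The likelihood ratio test of edgeR also gave 0 members, against 220 of all genes (1.4%), and so did the Wald test of DESeq2, against 253 (1.62%). At an unadjusted p under 0.05 there were 2 members by all 3 tools, Txnrd1 and Prdx6, both higher on the KD, where 11.4% of all genes passed, 5.86% higher and 5.5% lower. The median log2 fold change of the members was 0.07, with 29 higher and 7 lower, against a median of 0.01 over all genes. For 26 of the 36 the 95% interval lay within 1.5-fold in both directions. In 0 members did the 4 KD females lie wholly above or wholly below the 5 CD females, where 1.7% of all genes lay above and 0.402% below.

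**Figure D2:**
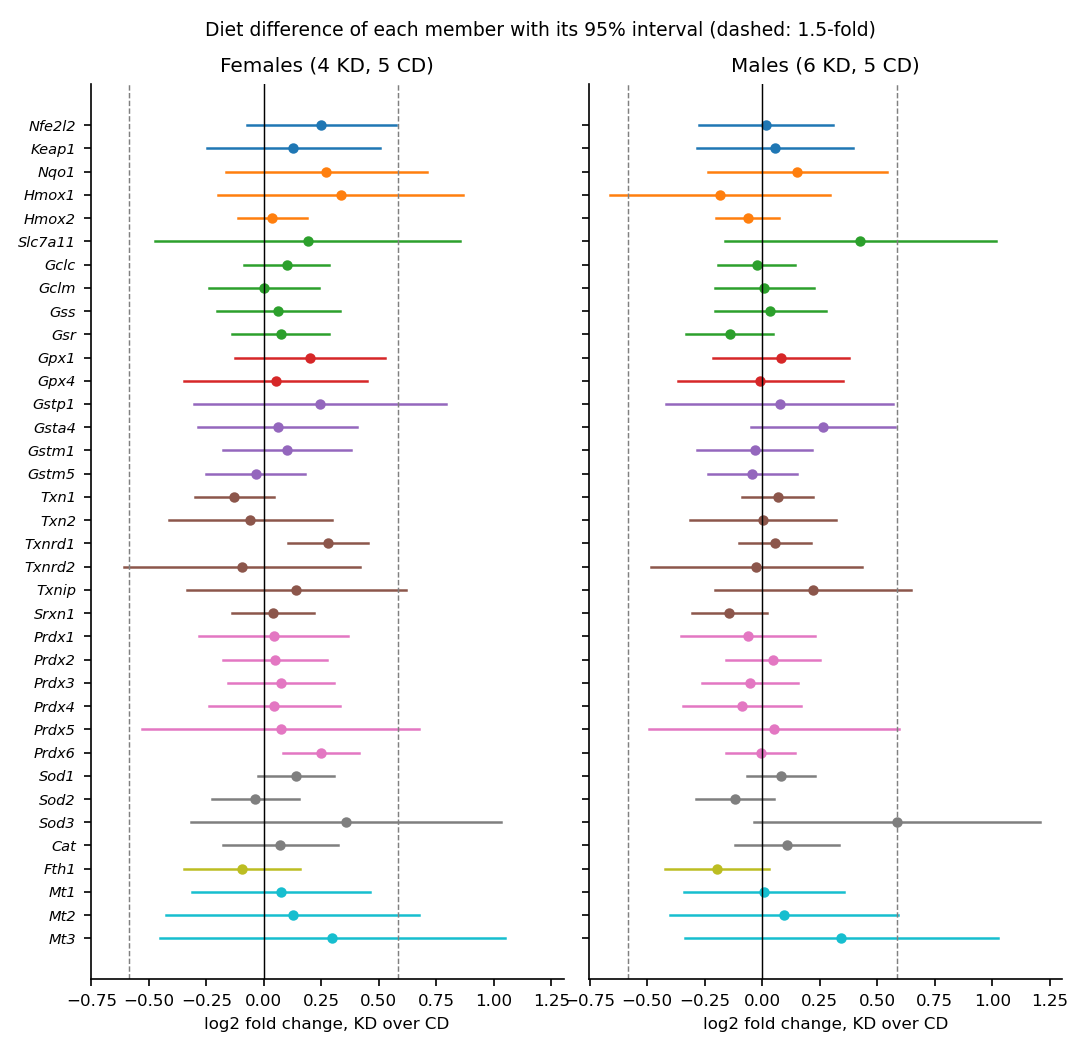
Log2 fold change of KD over CD for each member in females (left) and males (right), with the 95% interval of edgeR's quasi-likelihood fit and dashed lines at 1.5-fold. Intervals of Txnrd1 and Prdx6 lie above 0 in females, and in males every interval includes 0.

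Txnrd1 (chromosome 10 of GRCm38, 82833951 to 82897712) encodes the cytosolic thioredoxin reductase, a selenoprotein that returns thioredoxin to its reduced form. Its level was 82.8 CPM in KD female E61, 74.5 in E68, 79.3 in E207 and 65.9 in E227, and in CD females it was 66.3 CPM in E62, 60.0 in E67, 63.65 in E249, 51.3 in E265 and 55.4 in E228. Of the KD females, 3 lay above all CD females, and E227 lay below CD female E62 alone. In CD males the values were 60.9, 59.4, 57.8, 54.4 and 59.1 CPM, and in KD males they ran from 50.35 to 71.3 with a median of 61.9, so the male groups overlapped. The log2 fold change in females was 0.28 (SE 0.083, 95% interval 0.11 to 0.45), which is 1.21-fold, with a Benjamini-Hochberg adjusted p of 0.226 over all genes (edgeR, quasi-likelihood test). It was 0.28 within library series 1 and 0.29 within series 2. Leaving out any 1 of the 20 mice kept it between 0.22 and 0.32, with the unadjusted p under 0.05 each time. In edgeR's fit the adjusted p was 0.0316 without CD female E249 and 0.0486 without KD female E227, and that of DESeq2 was 0.0764, at folds below 1.5 in each case. Many other genes passed FDR 0.1 in these fits. Of 15710 genes without E249, 806 were higher and 622 lower, and of 15949 without E227, 484 were higher and 647 lower. By DESeq2 138 of 15660 genes were higher and 211 lower, against 4 and 4 by edgeR's quasi-likelihood test with all mice. The 3 KD females of highest Txnrd1 are also those of high striatal and low cortical marker sum, and in females 8 of the 10 striatal markers were higher and 6 of the 10 cortical ones lower on the KD at an unadjusted p under 0.05. With the striatal marker mean as a covariate the female effect came to 0.15 on the log2 scale (adjusted p = 0.861, edgeR), and it was 0.18 (adjusted p = 0.882) without the 5 libraries of highest striatal sum, which leaves 1 KD female.

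Prdx6 (chromosome 1, 161240112 to 161251219) encodes a peroxiredoxin that also repairs oxidised phospholipids and that is abundant in astrocytes. It was at 291.6 CPM in KD female E61, 262.6 in E68, 217.9 in E207 and 233.5 in E227, against 223.4 in CD female E62, 195.1 in E67, 185.3 in E249, 186.6 in E265 and 205.9 in E228. Again 3 KD females lay above all CD females, and the lowest, E207, lay below CD female E62 alone. The log2 fold change in females was 0.25 (SE 0.079, 95% interval 0.08 to 0.41, adjusted p = 0.230, edgeR's quasi-likelihood test). It was 0.37 within library series 1 and 0.16 within series 2, and between 0.20 and 0.28 with any 1 mouse left out. With the striatal marker mean as a covariate it was 0.20 (adjusted p = 0.861, edgeR), with the unadjusted p still under 0.05, and without the 5 libraries of highest striatal sum it was 0.22 (adjusted p = 0.882). Astrocyte markers summed to 8235 to 8935 CPM in CD females and 8349 to 9473 in KD females, with 1 of 12 higher at an unadjusted p under 0.05, and microglial markers to 330.5 to 464.5 and 444.1 to 628.3 CPM, with 5 of 12 higher. The part of these cell types in the values of Prdx6 and Txnrd1 was not tested.

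The other members in females are given by role. Nfe2l2 had a log2 fold change of 0.25 (SE 0.155) and Keap1 one of 0.13 (SE 0.180). Among quinone and heme enzymes Nqo1 was at 0.27 (SE 0.208) and Hmox1 at 0.33 (SE 0.254), the latter from 10 to 96 counts per library. In glutathione synthesis Gclc was at 0.10 (SE 0.088), Gclm at -0.0002 (SE 0.114), Gss at 0.06 (SE 0.128) and glutathione reductase Gsr at 0.07 (SE 0.101). Slc7a11, which imports cystine for glutathione synthesis, was at 0.19 with an SE of 0.316, and ran from -0.04 without KD female E68 to 0.50 without CD female E249. The peroxidases Gpx1 and Gpx4 were at 0.20 and 0.05, and the 4 glutathione S-transferases were between -0.04 (Gstm5) and 0.24 (Gstp1). In the thioredoxin system Srxn1, which reactivates overoxidised peroxiredoxins, was at 0.04 (SE 0.086), thioredoxin Txn1 at -0.13 (SE 0.082) and the thioredoxin-binding protein Txnip at 0.14 (SE 0.227). The peroxiredoxins other than Prdx6 were between 0.04 and 0.07, Sod1 was at 0.14 (SE 0.079), Sod2 at -0.04, catalase at 0.07 and Fth1 at -0.09. The metallothioneins Mt1, Mt2 and Mt3 were at 0.07, 0.12 and 0.30, the last between 0.06 without KD female E227 and 0.59 without CD female E228. None of these had an unadjusted p under 0.05. Within library series 1 alone 6 members had one, Nfe2l2, Nqo1, Prdx6, Slc7a11 and Sod1 higher and the mitochondrial thioredoxin reductase Txnrd2 lower, where 17.4% of all genes had one, and within series 2 there were 0, where 2.7% did.

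In males 0 members and 0 of all genes passed FDR 0.1 and 1.5-fold by edgeR's quasi-likelihood test (0%), and the likelihood ratio test and DESeq2 gave 0 of both too. At an unadjusted p under 0.05 there were 0 members by all 3 tools, where 3.56% of all genes passed, 2.37% higher and 1.19% lower. The median log2 fold change of the members was 0.01, with 21 higher and 15 lower, against -0.0030 over all genes, and 29 of the 36 had a 95% interval within 1.5-fold. In 0 members did the KD and CD males not overlap, where 0.102% of all genes were higher and 0.115% lower in this way. The values ran from -0.20 for Fth1 (SE 0.108) to 0.59 for Sod3 (SE 0.298, adjusted p = 0.9998, edgeR's quasi-likelihood test). Nfe2l2 was at 0.02 (SE 0.139), Keap1 at 0.05, Nqo1 at 0.15, Hmox1 at -0.18, Gclc at -0.02, Gclm at 0.01, Srxn1 at -0.14 and Txnrd1 at 0.06. Slc7a11 was at 0.43 (SE 0.282), Txnip at 0.22, Mt1 at 0.01, Mt2 at 0.10 and Mt3 at 0.34. By the unadjusted p under 0.05, 8 of 9 choroid plexus and 2 of 8 meningeal markers were higher on the KD in males. By the same measure 3 of 10 oligodendrocyte markers were lower, and 0 of 10 striatal and 0 of 10 cortical neuron markers differed. The part of these tissues in the male values was not tested. The count of members at an unadjusted p under 0.05 in males was 4 without KD male E59, 2 without CD male E51, and 1 without CD female E249, CD male E264, KD male E254 or KD male E256. The share of all genes was 4.96% without E59 and 2.51% to 5.06% in the others of these fits. The count was 5 without the 5 libraries of highest striatal marker sum, where 7.39% of all genes passed, with Slc7a11 and Gsta4 higher and Fth1, Gsr and Srxn1 lower.

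The interaction asks whether the effect of the diet differed between the sexes. By edgeR's quasi-likelihood test 0 members and 0 of all genes passed (0%), and by the other 2 tools 0 members and 1 of all genes each. At an unadjusted p under 0.05 Prdx6 was the single member by all 3 tools, where 2.14% of all genes passed, 1.09% higher and 1.05% lower. Its KD effect was 0.25 in females and -0.01 in males on the log2 scale, a difference of 0.26 (SE 0.106, adjusted p = 0.9999, edgeR's quasi-likelihood test). In CD males Prdx6 was at 201.4, 242.7, 220.0, 198.0 and 195.1 CPM, and in KD males it ran from 174.3 to 244.0 with a median of 211.5. The difference for Prdx6 was 0.34 within library series 1 and 0.21 within series 2. For Txnrd1 the difference was 0.22 (SE 0.112, adjusted p = 0.9999). Over the members the median was 0.07, against 0.01 over all genes. The number of members at an unadjusted p under 0.05 was 4 without KD male E59 (4.18% of all genes), 2 without CD female E249 (6.14%) or KD female E227 (6.92%), and 0 without CD female E67 (1.21%) or KD female E61 (1.23%). It was also 0 with no filter (2.35% of all genes), with the striatal marker mean as a covariate (1.67%) and without the 5 libraries of highest striatal sum (1.39%), where Prdx6 was at 0.21 and 0.27 in the last 2.

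Averaged over the sexes, 0 members passed FDR 0.1 and 1.5-fold by edgeR's quasi-likelihood test, the likelihood ratio test or DESeq2, against 42 of all genes (0.268%) by the first, 370 (2.36%) by the second and 351 (2.24%) by the third. At an unadjusted p under 0.05 there were 4 members by the quasi-likelihood test, 2 by the likelihood ratio test and 4 by DESeq2, and 13.9% of all genes passed the first, 7.41% higher and 6.44% lower. The 4 were Txnrd1, Prdx6, Sod1 and Sod3, all higher on the KD, as were 10 of the 10 striatal markers by the same measure, while 6 of the 10 cortical neuron markers were lower. With the striatal marker mean as a covariate, and likewise without the 5 libraries of highest striatal sum, none of the 4 had an unadjusted p under 0.05 and Gsta4 was the single member with one, where 8.5% and 7.88% of all genes passed. The log2 fold changes were 0.09 and 0.10 for Txnrd1 in these settings, 0.09 and 0.08 for Prdx6, 0.09 and 0.05 for Sod1, and 0.28 and 0.07 for Sod3. The median log2 fold change of the members was 0.05, with 25 higher and 11 lower, against 0.01 over all genes, and 33 of the 36 had a 95% interval within 1.5-fold. Txnrd1 was at 0.17 (SE 0.056, adjusted p = 0.178, edgeR's quasi-likelihood test) and Prdx6 at 0.12 (SE 0.053, adjusted p = 0.309). Sod1 (chromosome 16, 90220754 to 90226329), the cytosolic enzyme that turns superoxide into hydrogen peroxide, was at 188.7 CPM in KD female E61, 173.7 in E68, 139.8 in E207 and 139.0 in E227, and at 144.3, 145.1, 140.7, 127.1 and 128.7 in CD females. It was at 134.4, 140.5, 130.4, 132.0 and 134.5 CPM in CD males and at 120.4 to 164.0 in KD males, with a median of 144.7. The groups overlapped in both sexes. The average log2 fold change of Sod1 was 0.11 (SE 0.053, adjusted p = 0.359). It was 0.22 within library series 1 and -0.01 within series 2, so that its direction was not shared by the series.

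Sod3 (chromosome 5, 52363791 to 52371418) rested on 9 to 67 counts per library. It was at 2.60, 1.59, 2.36 and 1.08 CPM in KD females E61, E68, E207 and E227 and at 1.475, 1.58, 1.07, 1.35 and 1.41 in CD females. In CD males it was at 1.43, 0.790, 0.726, 0.879 and 1.03 CPM, and in KD males it ran from 0.609 to 2.31 with a median of 1.42. All 4 groups overlapped one another. Averaged over the sexes its log2 fold change was 0.47 (SE 0.220, adjusted p = 0.345, edgeR's quasi-likelihood test). The same value was 0.69 within library series 1 and 0.17 within series 2. The number of members at an unadjusted p under 0.05 in this comparison was 2 without CD male E51, E58 or E66, KD male E64 or CD female E62, and 1 without KD male E59, CD female E67 or KD female E61. The share of all genes in these fits was 9.7% to 13.4%. Within library series 1 alone 8 members had one, where 18.2% of all genes did. Slc7a11 passed both thresholds there with a log2 fold change of 0.79 (adjusted p = 0.0567), as did 886 of all genes (5.55%). Within series 2 the count was 0, where 1.29% of all genes passed.

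Between the sexes, averaged over the diets, 0 members passed FDR 0.1 and 1.5-fold by any of the 3 tools, against 21 of all genes (0.134%) by edgeR's quasi-likelihood test, 286 (1.83%) by its likelihood ratio test and 212 (1.35%) by DESeq2. At an unadjusted p under 0.05 there were 4 members by the quasi-likelihood test, 3 by the likelihood ratio test, which did not include Gss, and 4 by DESeq2. Nfe2l2, Txnrd1 and Sod3 were higher and Gss lower in females, where 13.6% of all genes passed, 8.59% higher and 4.96% lower. The median log2 difference of the members was 0.04, with 20 higher and 16 lower, against 0.0031 over all genes. Nfe2l2 (chromosome 2, 75675513 to 75704641) was at 25.2, 29.25, 21.9 and 17.2 CPM in KD females E61, E68, E207 and E227 and at 19.1, 15.9, 22.45, 20.5 and 16.5 in CD females E62, E67, E249, E265 and E228. In CD males it was at 13.7, 16.6, 18.0, 16.3 and 19.3 CPM, and in KD males between 15.2 and 20.3 with a median of 16.8. The highest 5 values were from females, 4 of them from libraries of high striatal marker sum, and the lower females lay within the range of the males. The log2 difference of females minus males was 0.30 (SE 0.104, 95% interval 0.08 to 0.51, adjusted p = 0.243, edgeR's quasi-likelihood test). It was 0.36 within library series 1, 0.17 within series 2, 0.24 (adjusted p = 0.9997, edgeR) with the striatal marker mean as a covariate and 0.0045 without the 5 libraries of highest striatal sum. Without KD female E227 it was 0.36 with an adjusted p of 0.0366 (edgeR's quasi-likelihood test), at a fold below 1.5. In that fit 5.1% of all genes passed both FDR 0.1 and 1.5-fold.

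Txnrd1 was 0.17 higher in females on the log2 scale (SE 0.056, adjusted p = 0.225, edgeR's quasi-likelihood test), 0.15 within library series 1 and 0.18 within series 2. It was 0.11 with the striatal marker mean as a covariate and 0.10 without the 5 libraries of highest striatal sum. In these settings 0 members had an unadjusted p under 0.05 between the sexes, where 3.89% and 1.07% of all genes did. Sod3 was 0.49 higher (SE 0.220, adjusted p = 0.344). Gss (chromosome 2, 155563181 to 155592810), which joins glycine to complete glutathione, was 0.19 lower in females on the log2 scale, a value of -0.19 (SE 0.086, adjusted p = 0.352). It was at 11.6, 10.8, 8.98 and 12.1 CPM in KD females and 11.8, 10.6, 8.85, 7.15 and 11.2 in CD females. In CD males it was at 13.2, 12.7, 11.2, 10.7 and 10.8 CPM, and in KD males between 10.15 and 13.6 with a median of 11.9. The sexes overlapped. The exons of Gss overlap those of Acss2, Gssos1 and Gssos2, all on the other strand, so that reads could be shared if the strand was not used in counting. Its value was -0.17 within series 1 and -0.19 within series 2. In this comparison 7 members had an unadjusted p under 0.05 without KD female E227, where 23.9% of all genes did, and 2 without CD male E58, KD male E53, KD female E61 or E207, or CD female E265, where 9.65% to 13.4% did.

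**Figure D3:**
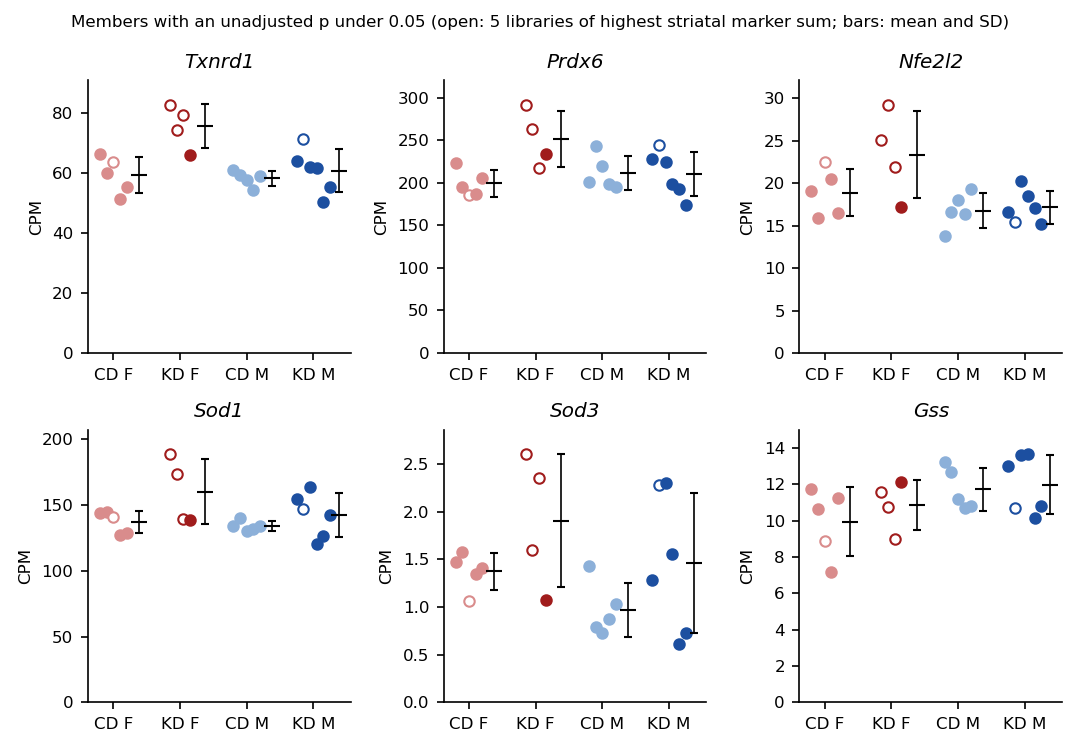
CPM of the 6 members with an unadjusted p under 0.05 in any comparison, for each library, with the mean and SD of each group. Open circles mark the 5 libraries of highest striatal marker sum, and 3 of the 4 KD females are among them.

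A further 89 redox genes that are not members were listed, of which 82 were tested, to set the members beside the rest of these pathways. By edgeR's quasi-likelihood test 0 of the 82 passed FDR 0.1 and 1.5-fold in females, in males, in the interaction, averaged over the sexes and between the sexes. At an unadjusted p under 0.05, 5 were higher and 4 lower on the KD in females, 4 higher and 0 lower in males, 8 higher and 4 lower averaged over the sexes, 2 higher and 1 lower in the interaction, and 11 higher and 4 lower in females than in males. These are 11.0%, 4.88%, 14.6%, 3.66% and 18.3% of the 82, and the shares of all genes were 11.4%, 3.56%, 13.9%, 2.14% and 13.6%. The NRF2 partners and regulators, 11 genes such as Maff, Bach1 and Cul3, showed a median KD effect of 0.02 (log2) in females with 0 at an unadjusted p under 0.05, and the 11 genes of NADPH supply had a median of 0.14, also with 0. The genes of smallest p in females were Cbr3, a carbonyl reductase (log2 fold change 0.78, adjusted p = 0.230, edgeR's quasi-likelihood test), and the sestrin Sesn3 (0.45, adjusted p = 0.230), and then Msrb3 (-0.41), Pir (-0.39) and Msra (-0.45). In males they were Me2 (0.36), Gpx3 (0.80), Maff (0.80), Ephx1 (0.32) and Gpx8 (0.61), all with an adjusted p of 0.9998. Averaged over the sexes they were Sesn3 (0.33, adjusted p = 0.130), Ephx1 (0.37), Gpx3 (0.84), Msrb3 (-0.30) and Cbr3 (0.49), in the interaction Gsta3 (0.88), Me1 (-0.35), Gstm7 (0.55), Pir (-0.37) and G6pdx (0.35), and between the sexes Mgst1 (0.54, adjusted p = 0.155), Aldh3a1 (-1.23), Msra (-0.39), Gpx3 (0.84) and Aldh1a1 (0.58).

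Between mice of the same group, many members rose or fell with the GC content of the exons of their longest transcript. The trend of each library was taken over 15438 genes other than the members, as deviations of log2 CPM from each gene's mean over all libraries. These sloped with GC content by -0.59 (CD female E249) to 0.49 (KD male E64) per 10% of GC, and the range overlapped between the 4 groups. Group and library series were not fitted for these slopes, but were fitted to the slopes and to the members before the 2 were correlated. Mt3, with 62.3% GC, followed the trend with r = 0.96 (rho = 0.96, permutation p = 1e-05, the smallest that the permutations can give, n = 20), and r was 0.94 without the 2 libraries farthest from the median, 0.90 within library series 1 and 0.99 within series 2. Keap1 (58% GC), Gstp1 (55.8%) and Prdx5 (56.4%) each had r = 0.97. Prdx1, with 42.3% GC, ran against it with r = -0.94 (rho = -0.94, permutation p = 1e-05), with -0.95 within series 1 and -0.97 within series 2, and Gclc (47.7%) had r = -0.83 and Prdx3 (45.5%) r = -0.81. In all, 14 members had r above 0.5, with 48.2% to 62.3% GC, and 8 had r below -0.5, with 42.1% to 48.7% GC. A Benjamini-Hochberg adjusted permutation p under 0.05 was found for 27 of the 36. The trend was taken over genes in general, and the share of all tested genes that follow it is not given here. These counts therefore do not set the members apart from other genes. Across the 36 members, which are not independent replicates, GC content and r with the trend had r = 0.85, given as a description. Txnrd1 had r = -0.06 with the trend (-0.17 within series 1 and -0.11 within series 2) and Prdx6 r = -0.12, of opposite signs in the series (-0.33 and 0.53). With the trend as a covariate their log2 fold changes in females were 0.28 (adjusted p = 0.0826) and 0.25 (adjusted p = 0.0907) in edgeR's fit. At FDR 0.1 in that fit 232 of 15660 genes were higher and 240 lower, against 4 and 4 without the covariate. Whether the trend arises in the tissue or in the library was not tested.

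**Figure D4:**
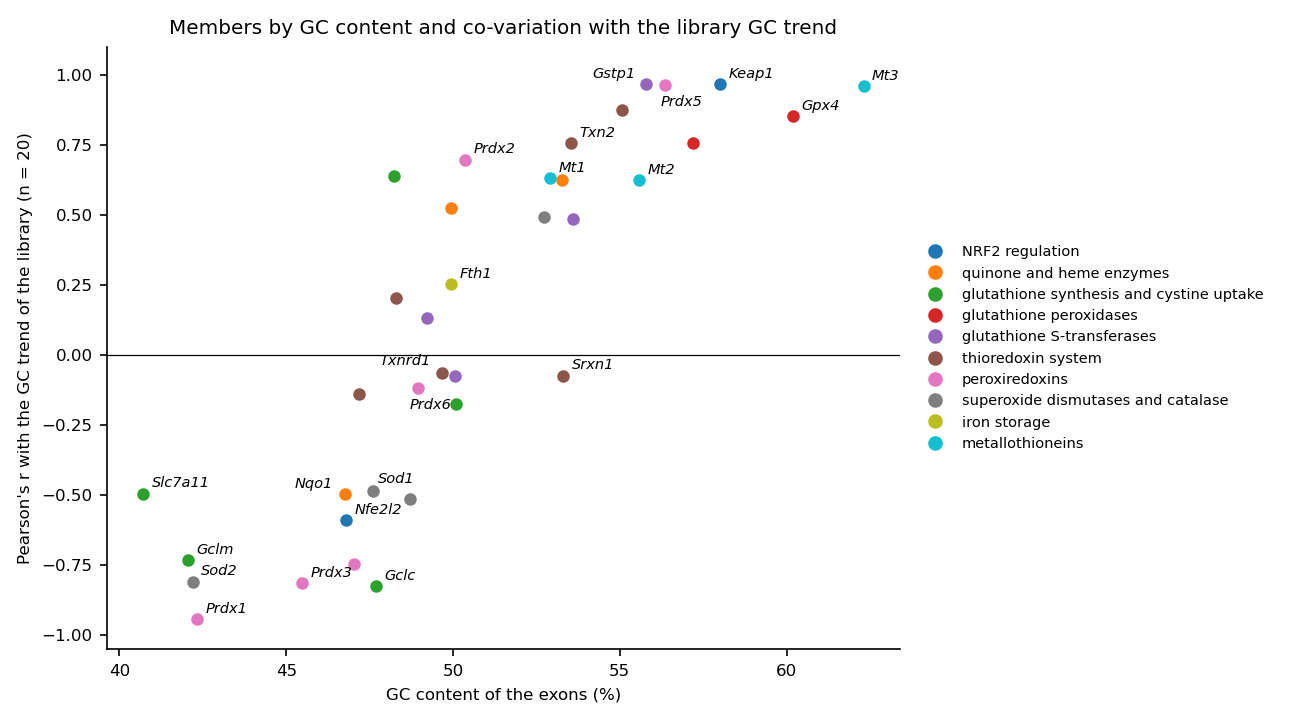
Pearson's r of each member with the GC trend of the library over 20 libraries, against the GC content of the exons of its longest transcript in percent. GC-rich members such as Mt3 (r = 0.96) lie at the top, AT-rich members such as Prdx1 (r = -0.94) at the bottom, and Txnrd1 and Prdx6 near 0.

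**Figure D5:**
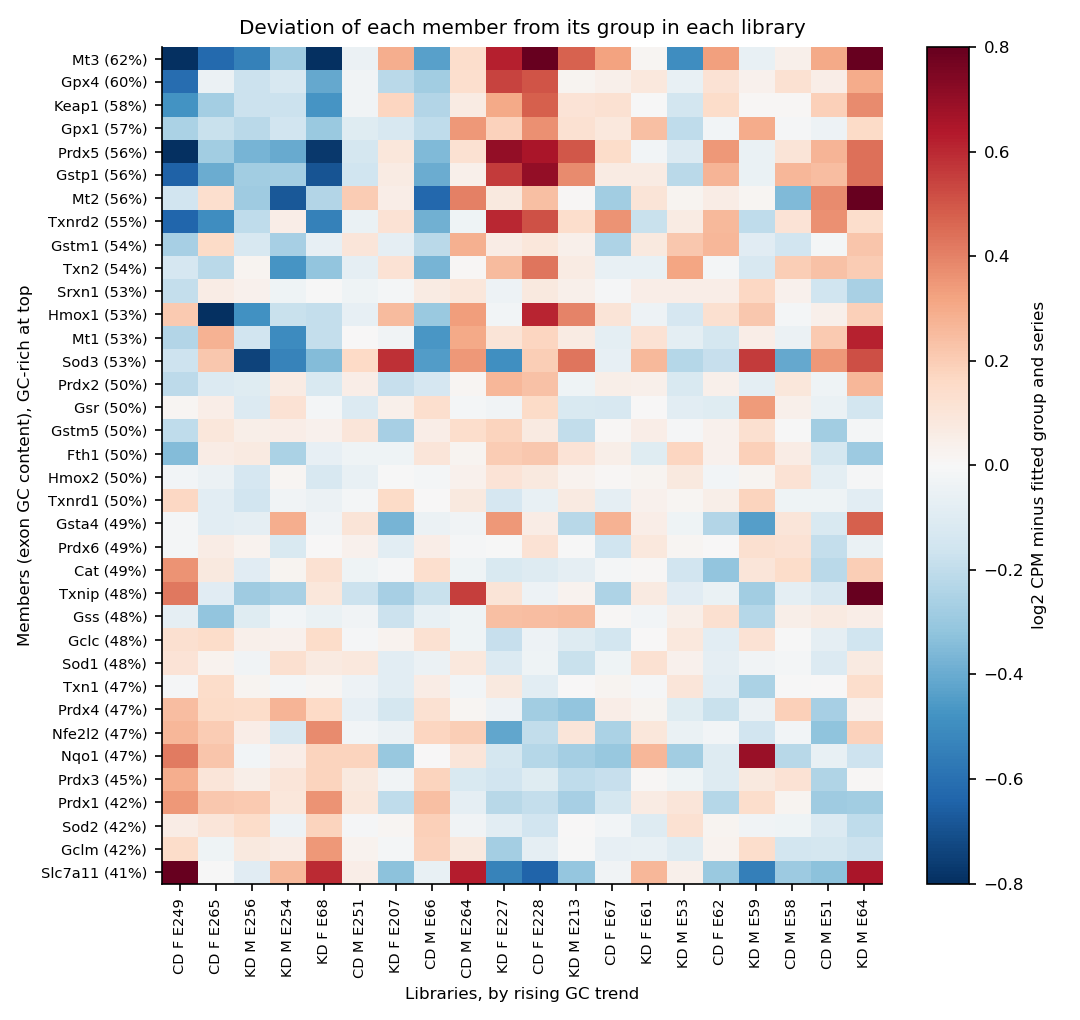
Deviation of each member from its group and series in each library, in log2 CPM, with libraries ordered by rising GC trend and members by GC content in percent. GC-rich members at the top turn from low to high from left to right, and KD male E64 and CD female E249 stand at the ends.

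Of 10 pairs of members compared across the 20 mice after group and series were fitted, 5 had an adjusted permutation p under 0.05. Mt1 and Mt2 (chromosome 8, 94179082 to 94180327 and 94172664 to 94173568) moved together most closely, with r = 0.93 (rho = 0.87, permutation p = 1e-05, the smallest possible, adjusted p = 0.0001), r = 0.85 without the 2 farthest libraries, 0.92 within series 1 and 0.93 within series 2. The 2 subunits of glutamate-cysteine ligase, Gclc and Gclm, had r = 0.69 (rho = 0.65, permutation p = 0.00066, adjusted p = 0.0033), 0.56 without the 2 farthest, 0.81 within series 1 and 0.76 within series 2. Mt1 and Mt3 had r = 0.57 (rho = 0.54, permutation p = 0.0079, adjusted p = 0.0198), 0.94 within series 1 and 0.50 within series 2. Prdx1 and Prdx2 ran against each other with r = -0.60 (rho = -0.57, permutation p = 0.0055, adjusted p = 0.0185), -0.63 without the 2 farthest, -0.72 within series 1 and -0.54 within series 2. Mt1 and Txnip had r = 0.56 (rho = 0.41, permutation p = 0.0118, adjusted p = 0.0236), but 0.22 without the 2 farthest libraries. Within series 1 their r was 0.67, and 0.52 without the 2 farthest of that series. Within series 2 it was 0.12, and 0.62 without the 2 farthest, so that its size turned on single libraries. Nfe2l2 had r = 0.31 with Nqo1, -0.04 with Srxn1 and 0.20 with Txnrd1 (permutation p = 0.177, 0.858 and 0.395), with opposite signs in the 2 series for Nqo1 (-0.26 and 0.35) and Txnrd1 (-0.31 and 0.63). Txnrd1 and Srxn1 had r = 0.17 (permutation p = 0.490), with 0.81 within series 1 and -0.40 within series 2, and Sod1 and Sod2 had r = 0.03 (permutation p = 0.895). Most genes of the 5 pairs that passed followed the GC trend or ran against it. Its r was 0.63 for Mt1, 0.63 for Mt2, 0.96 for Mt3, -0.83 for Gclc, -0.73 for Gclm, -0.94 for Prdx1 and 0.70 for Prdx2. Members outside these pairs also moved together, as Keap1 and Mt3 (r = 0.98), and the share of all pairs that would pass is not given here. Of the genes in the 10 pairs Txnrd1 (r = -0.06), Srxn1 (-0.07) and Txnip (0.20) had the r nearest 0 with the GC trend over all libraries. Within the series, however, Srxn1 had r = -0.57 in series 1 and 0.61 in series 2, and Txnip 0.47 and 0.12. The part of the trend in the pairs was not tested.

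Slc7a11 spread over 103.6 to 432.6 CPM. It was at 238.2, 285.0, 212.0 and 185.6 CPM in KD females E61, E68, E207 and E227 and at 133.3, 157.2, 432.6, 210.4 and 143.6 in CD females E62, E67, E249, E265 and E228. In CD males it was at 103.6, 104.0, 115.6, 182.3 and 275.9 CPM and in KD males at 116.1 to 277.7 with a median of 205.4, so that each group overlapped the others. The 6 libraries of highest Slc7a11, at 238.2 CPM or more against at most 215.7 in the other 14, were the same 6 as those of highest summed level of 8 meningeal markers, at 204.1 CPM or more against at most 153.5. Meningeal tissue lies on the cortex, and its part in the values of Slc7a11 was not tested.

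Library series 2 differed from series 1 in more members than any diet or sex comparison. At FDR 0.1, 14 of the 36 members differed, where 33.2% of all genes did, and with the 1.5-fold change 1 did, where 7.24% of all genes did. The 1 was Txn2, the mitochondrial thioredoxin, at a log2 difference of -0.75 (series 2 minus series 1, adjusted p = 0.000192, edgeR's quasi-likelihood test). Of all genes 37.9% had an unadjusted p under 0.05, 19.5% higher and 18.4% lower in series 2. Of the 16 members with one, 15 were lower in series 2, among them Gpx1 (-0.41), Keap1 (-0.38), Gsr (-0.31) and Srxn1 (-0.24), and Slc7a11 was higher (0.52). The series was a term of every comparison of diets and sexes above. Exons of 10 members overlap those of other genes (Keap1, Hmox2, Gclm, Gss, Gstm5, Txnrd2, Txnip, Prdx2, Prdx5 and Mt2). Apart from Gclm, which has an overlap on its own strand too, these lie on the other strand alone. The paper names a stranded library kit, but the strand counted is not given. Gstp1 and the Gstm genes belong to families of related genes, and how alike their sequences are was not measured here. The counts of all these genes are uncertain where reads were shared between genes.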

How the data were processed

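RNA-seq was done on cortex of 20 APOE4 mice, 1 library per mouse. The deposited values are whole-number counts of reads per gene, which the authors made with STAR (mm10) and HTSeq and did not normalize. Versions, annotation and the strand counted are not given in the sources used here. The labels gave the groups, and the library series were inferred from the E numbers in them.

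CPM were computed from the deposited counts by scaling to the library totals, and the prior count for log2 CPM was 2. Exon lengths, GC content and coordinates came from GENCODE M21 (GRCm38), in which 23011 of 23413 gene names matched, all 36 members among them. GC content was that of the longest transcript of each gene. The 41 pairs of libraries within a group all differed beyond counting noise (chi-square per degree of freedom of at least 6.90). Differences were tested in R 4.3.3 with edgeR 4.0.16 (quasi-likelihood F test with robust dispersions) on the 15660 genes that passed filterByExpr, with upper-quartile normalization. All libraries were in 1 fit with terms for the 4 groups and the library series, and p-values were adjusted by Benjamini-Hochberg over all genes tested. For the interaction, the KD effect of males was subtracted from that of females. The study estimated unwanted variation with RUVg, whose factors and controls are not stated, so RUVg with 1 factor was an alternative only. Other alternatives were TMM and DESeq2 size factors, a fit without a filter, a minimum of 10 counts in every library, a fit without the series, each sex and each series alone, edgeR's likelihood ratio test, DESeq2 1.42.0, and leaving out each mouse in turn. Pairs of members and the GC trend were tested by 100000 permutations of residuals after group and series. Scripts were tested on simulated data.

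The members and lists were chosen with earlier results of these data known. Named with full values were 12 members whatever they showed (Nfe2l2, Keap1, Nqo1, Hmox1, Slc7a11, Gclc, Gclm, Srxn1, Txnip, Mt1, Mt2 and Mt3), the 6 with an unadjusted p under 0.05 in any comparison, and the highest per kilobase in each role. Of other redox genes the 5 of smallest p in each comparison were named. Cell type markers were summed per list. Protein sequences were not used here.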

Additional observations from a re-analysis of the deposited data

Results flagged for a closer look

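Over 23 named members, 92 groups of 4 to 6 libraries were checked for a library far from the rest, and 6 values stood apart. By chance about 1 in 20 groups is flagged in this way.

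KD male E64 was high in 3 members, with Txnip at 49.23 CPM (nearest KD male 24.18), Mt2 at 21.43 CPM (nearest 11.05) and Mt3 at 100.1 CPM (nearest 51.9). This library also had the highest GC trend, the highest meningeal marker sum (464.6 CPM) and the lowest oligodendrocyte marker sum (1530 CPM), and the part of these in the 3 values was not tested. KD male E59 was high in Nqo1, at 12.41 CPM (nearest 7.408), and in Gclm, at 39.4 CPM (nearest 34.92). This is the library of highest striatal (3715 CPM) and choroid plexus (2416 CPM) marker sums, and their part was not tested. CD female E249 was high in Slc7a11, at 432.6 CPM (nearest CD female 210.4). It had the lowest GC trend and the highest meningeal marker sum of the CD females (299.3 CPM), and their part was not tested.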

How the results depend on the processing

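No paired analysis was possible because no replicate number is shared between groups. The count of members past FDR 0.1 and 1.5-fold was 0 in each of the 5 comparisons under all settings, with leave-one-out counts from 0 to 0, apart from the diet effect averaged over the sexes in library series 1 alone, where it was 1 (Slc7a11, fold 1.72). Of the 10 pairs of members, 5 passed an adjusted permutation p under 0.05, 6 did in library series 1 alone (the same 5, and Txnrd1 with Srxn1), and 1 (Mt1 and Mt2) in series 2 alone, with 10 libraries each. The average diet effect of Sod1 was 0.11 on the log2 scale and -0.0109 in library series 2 alone. There the cause was not tested.

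Covariates for the GC trend and for the striatal marker mean, and leaving out the 5 libraries of highest striatal sum, were chosen after seeing the data. With the GC trend as a covariate 5 members in females had an unadjusted p under 0.05 (Gclc, Nfe2l2, Prdx6, Sod1 and Txnrd1), where 19% of all genes did, and with the striatal mean 1 did (Prdx6), where 5.4% did. Without the 5 libraries 0 did, where 3.7% did. Since 3 of the 4 KD females are among these 5, these settings cannot fully tell striatal content and diet apart. Between the sexes, 6 members had an unadjusted p under 0.05 with the GC trend as a covariate, where 13.4% of all genes did. They were Keap1, Mt1, Nfe2l2, Prdx5, Sod3 and Txnrd1, and Gss, which followed the trend with r = 0.64, was not among them.

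Sod3 and Hmox1 rest on few counts (9 and 10 in the lowest library). Their 95% intervals in females reached past 1.5-fold, as did those of 8 other members, Slc7a11 (at least 2389 counts) and Mt3 (175) among them.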
